A study of Homo sapiens with 3 samples.

Results

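Brain regional patterning transcription factor genes are genes whose products mark a position along the developing neural tube. The 9 genes described here were EMX2, LHX2, OTX2 and SIX3 (forebrain, OTX2 also midbrain), EN1 and EN2 (midbrain and anterior hindbrain), GBX2 (hindbrain), and DLX2 and NKX2-1 (ventral forebrain). They were taken by name from 20033 protein-coding genes of GENCODE release 44. For each, all CHD8 and TRRAP peaks from 5 kb upstream of the annotated gene to its end were collected on GRCh38. The peaks come from chromatin immunoprecipitation sequencing of wild-type (WT) human neural stem cells. These cells were made from the H9 embryonic stem cell line and grown with EGF and FGF. Chromatin was fixed with 2 mM disuccinimidyl glutarate and then 1% formaldehyde, and 1 library was made with a CHD8 antibody, 1 with a TRRAP antibody and 1 with control IgG. The CHD8 and TRRAP libraries each gave a peak list, and the control IgG was not analysed here. All groups share the same cells and fixation and differ in the antibody.

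The early neural tube is divided into regions by transcription factors, most of them homeodomain proteins, that are switched on in restricted domains and repress one another at their borders. OTX2 and GBX2 meet at the midbrain-hindbrain boundary, where EN1 and EN2 are expressed on both sides. LHX2 and EMX2 pattern the cortical primordium, SIX3 marks the most anterior neural plate, and DLX2 and NKX2-1 act in the ventral forebrain, where inhibitory neurons arise. CHD8 is a chromodomain ATP-dependent remodeler, and TRRAP is the scaffold that links activators to histone acetyltransferase complexes.

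CHD8 peaks lay at 4 of the 9 genes (LHX2, EN2, GBX2 and DLX2), beside 64.1% of all protein-coding genes. TRRAP peaks lay at 2 (EN2 and GBX2), beside 43.3%. EMX2, OTX2, SIX3, EN1 and NKX2-1 had no peak of either protein from 5 kb upstream to the gene end. GBX2 held 6 of the 10 CHD8 peaks and 4 of the 5 TRRAP peaks. By region, TRRAP peaks were thus present at the midbrain and hindbrain genes EN2 and GBX2 but not at EN1. Of all TRRAP peaks, 98.3% had a higher fold than the one at EN2. CHD8 peaks lay also at a dorsal forebrain gene (LHX2) and a ventral forebrain gene (DLX2). In wider lists of regional factors, TRRAP also lay at the promoter of 3 of 12 anterior and 1 of 12 dorsal forebrain genes, beside 34.9% of all genes. A peak records where chromatin was recovered by the antibody and says nothing of whether the gene was transcribed.

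The sequences under the peaks that carry these results are given first, on the strand of the gene. Capitals mark the E-box word CACGTG, which MYC and MAX bind, and the SP word GGGGCGGGG or its complement. Annotated untranslated exon sequence was left out. The GBX2 stretch is the part upstream of the start site (chr2:236168387-236168663, minus strand) of the CHD8 peak with the highest fold among the 9 genes, and the distal stretch is the TRRAP peak with the highest fold (chr2:236169956-236170159, minus strand). The EN2 stretch is its CHD8 peak (chr7:155457340-155457573, plus strand), whose first 92 bases are shared with the TRRAP peak. The DLX2 stretch is the upstream part of its CHD8 peak (chr2:172102901-172102987, minus strand).
GBX2 promoter: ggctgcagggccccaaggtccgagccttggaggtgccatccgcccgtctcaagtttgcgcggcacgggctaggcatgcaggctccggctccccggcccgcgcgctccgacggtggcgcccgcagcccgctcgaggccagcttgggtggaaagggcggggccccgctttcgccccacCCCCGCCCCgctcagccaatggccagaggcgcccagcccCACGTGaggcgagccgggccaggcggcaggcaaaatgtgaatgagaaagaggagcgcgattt
GBX2 distal: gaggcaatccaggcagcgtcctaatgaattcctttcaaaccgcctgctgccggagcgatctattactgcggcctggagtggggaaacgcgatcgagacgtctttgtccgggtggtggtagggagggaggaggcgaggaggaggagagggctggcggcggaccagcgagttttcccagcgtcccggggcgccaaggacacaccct
EN2 upstream: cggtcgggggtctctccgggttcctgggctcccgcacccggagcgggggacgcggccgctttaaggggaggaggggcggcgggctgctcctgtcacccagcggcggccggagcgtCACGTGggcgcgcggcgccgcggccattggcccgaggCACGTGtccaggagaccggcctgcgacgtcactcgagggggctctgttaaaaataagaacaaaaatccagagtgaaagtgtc
DLX2 promoter: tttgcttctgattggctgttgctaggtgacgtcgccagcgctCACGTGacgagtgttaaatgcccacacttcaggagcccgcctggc
The E-box word was present once in the GBX2 promoter stretch, at 2 places in the EN2 stretch and once in the DLX2 stretch, and it was not found in the GBX2 distal stretch.

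The LHX2 stretch is the CHD8 peak nearest to its start site (chr9:124011503-124011695, plus strand). It is set beside the 250 bp upstream of the start sites of 2 genes without a peak, EN1 (chr2:118847649-118847898, minus strand), the paralog of EN2, and OTX2 (chr14:56810480-56810729, minus strand), to show that sequence composition differed among the genes. The LHX2 stretch held 26 CpG dinucleotides in 193 bp. At equal length, the 250 bp upstream of the start site held 25 at LHX2, 19 at EN1 and 7 at OTX2.
LHX2 promoter: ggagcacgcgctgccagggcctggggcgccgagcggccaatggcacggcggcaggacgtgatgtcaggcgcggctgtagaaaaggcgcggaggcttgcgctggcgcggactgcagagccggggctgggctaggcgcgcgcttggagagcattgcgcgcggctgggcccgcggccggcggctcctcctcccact
EN1 upstream: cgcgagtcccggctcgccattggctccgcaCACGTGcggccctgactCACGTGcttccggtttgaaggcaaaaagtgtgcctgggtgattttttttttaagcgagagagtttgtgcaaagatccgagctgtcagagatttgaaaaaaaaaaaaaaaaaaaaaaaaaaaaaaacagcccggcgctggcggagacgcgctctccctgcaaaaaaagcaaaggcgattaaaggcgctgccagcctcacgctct
OTX2 upstream: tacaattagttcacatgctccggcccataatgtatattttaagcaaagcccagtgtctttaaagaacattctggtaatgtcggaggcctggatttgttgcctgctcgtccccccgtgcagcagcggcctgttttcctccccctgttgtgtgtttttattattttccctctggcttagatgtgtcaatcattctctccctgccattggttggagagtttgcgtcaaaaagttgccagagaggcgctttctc
EN1 carried the E-box word at 2 places without a peak of either protein. The search covered both strands without mismatch, and a match is a description of the letters.

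Peak values are the authors' own. The fold is the peak caller's linear ratio of the signal at the summit over its background, and −log10 q is its significance. Each protein had 1 library, so no value has a replicate error and no test was made. The number of reads behind the lists is unknown here. The CHD8 list held 23393 peaks with a median fold of 9.31 and a median width of 376 bp. The TRRAP list held 14735 peaks with a median fold of 8.17 and a median width of 229 bp. Weak folds took few distinct values, most often 0.442 apart for CHD8 and 0.478 apart for TRRAP, so peaks can have equal folds. Lists of cell type markers were chosen with earlier results of these data known, so their counts cannot check the labelled cell type. CHD8 lay within 1 kb of the start site of 8 of 8 neural stem cell marker genes and TRRAP of 6. The shares were 55.9% and 34.9% for all protein-coding genes and 67.9% and 43.5% at like CpG ratio. CHD8 lay at 2 of 6 pluripotency genes, 2 of 6 neuronal, 2 of 6 neural crest, 0 of 6 glial and 0 of 6 mesoderm and endoderm genes. Both lists gave the same counts for pluripotency and neuronal genes, and TRRAP lay at 1 of 6 neural crest genes and 0 of the other 12. For these other lists, the CHD8 share of all genes at like CpG ratio ran from 26.1% (pluripotency) to 56.5% (neural crest). Of the pluripotency genes, POU5F1, NANOG, TDGF1 and ZFP42 had no peak, while DPPA4 (CHD8 fold 20.4) and LIN28A (16.8) had promoter peaks of both proteins. These CHD8 folds were above those of the 8 neural stem cell markers (at most 14.2). The neuronal gene SNAP25 had a higher CHD8 promoter fold still, 38.0, with a TRRAP fold of 13.4, and neuronal TUBB3 had 8.87 and 9.60.

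A CHD8 peak within 1 kb of the canonical start site was present at 4 of the 9 genes, against 55.9% of all protein-coding genes. A TRRAP peak there was present at 2 of 9, against 34.9%, and both were present at 2 of 9 (EN2 and GBX2), against 34.0%. In the wider window, from 5 kb upstream to the gene end, the counts were again 4 for CHD8, against 64.1% of all genes, and 2 for TRRAP, against 43.3%. Promoters of the 9 genes had a median CpG ratio (observed over expected CpG within 500 bp of the start site) of 0.753, against 0.725 for all genes. When each CpG decile was weighted by how many of the 9 genes it holds, the share of protein-coding genes with a promoter peak was 72.6% for CHD8, 45.6% for TRRAP and 44.3% for both. The counts at the 9 genes were below these weighted shares for each protein, with no test of the difference.

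**Figure D1:**
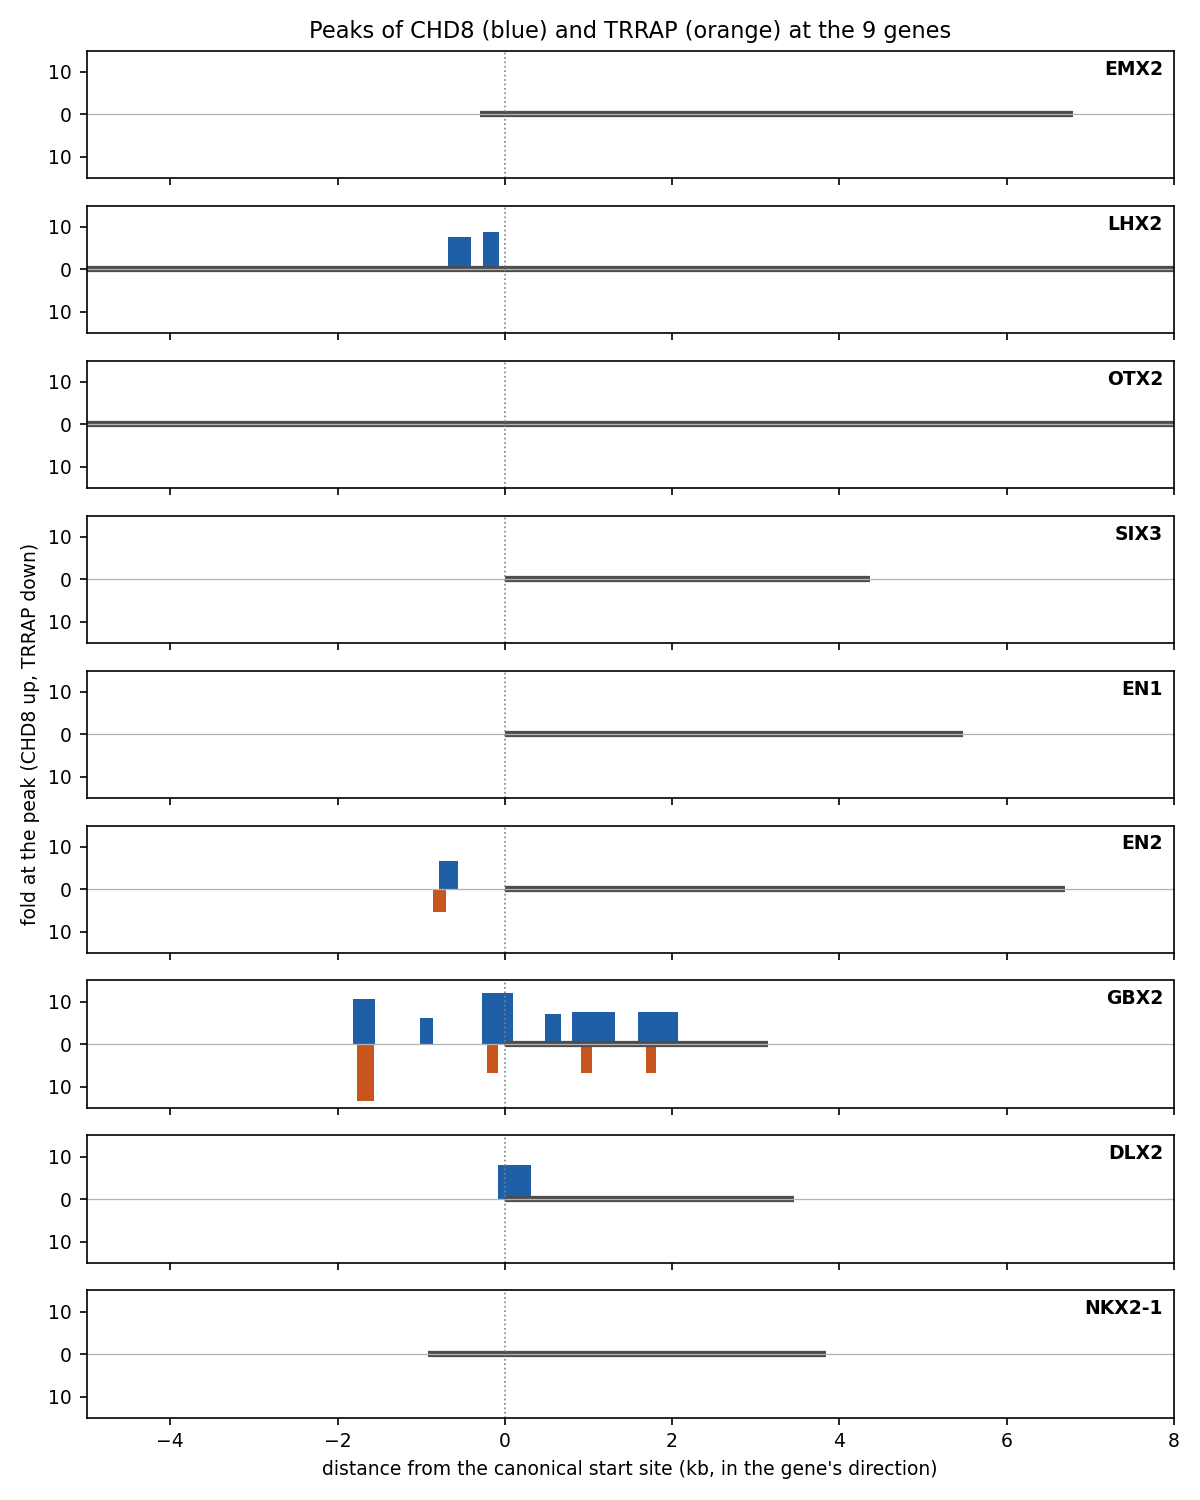
Peaks at each of the 9 genes, drawn by distance in kb from the canonical start site (dotted line) in the direction of the gene. Blue bars above the line are CHD8 peaks and orange bars below it are TRRAP peaks; bar width is peak width, bar height is the fold, and the grey line is the annotated gene. GBX2 holds 6 CHD8 and 4 TRRAP peaks, and EMX2, OTX2, SIX3, EN1 and NKX2-1 hold none.

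GBX2, a homeodomain factor of the anterior hindbrain, had the densest set of peaks (chromosome 2, 236165236 to 236168386, minus strand). Its strongest CHD8 peak (236168287 to 236168663) reached a fold of 12.0 and a −log10 q of 21.2, and its summit was 129 bp upstream. The next lay at 236169940 to 236170198, with a fold of 10.6 and the summit 1679 bp upstream, outside the promoter window. These were the 2 of the 10 CHD8 peaks at the 9 genes with a fold above the list's median.

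The other 4 CHD8 peaks at GBX2 were weaker, with folds of 6.22 to 7.54. Peaks at 236167074 to 236167583 (summit 940 bp downstream of the start site) and 236166311 to 236166787 (1733 bp downstream) had their summits in the intron and equal folds of 7.54. A peak at 236167712 to 236167900 (fold 7.10) had its summit 559 bp downstream, in the coding part of exon 1. A peak at 236169244 to 236169398 (fold 6.22) had its summit 933 bp upstream. Together the 6 peaks covered 1967 bp of a stretch of 3888 bp.

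Each of the 4 TRRAP peaks at GBX2 lay inside a CHD8 peak. At the distal site, 236169956 to 236170159, the fold was 13.4 and the −log10 q 22.9, and the TRRAP summit lay 5 bp from the CHD8 summit. Of all TRRAP peaks, 14.0% had a higher fold. At the promoter, TRRAP reached a fold of 6.73 (236168469 to 236168593), and its summit was 160 bp from the start and 31 bp from that of CHD8. The 2 intronic TRRAP peaks, at 236167346 to 236167470 and 236166575 to 236166699, had the same fold of 6.73 and a −log10 q of 6.39. The order by fold thus differed between the 2 lists at GBX2. The promoter came first for CHD8 (12.0 against 10.6) and the distal site for TRRAP (13.4 against 6.73). Each order rests on 1 library, and the difference was not tested.

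The number of peaks at GBX2 was high for so short a gene. Its window, from 5 kb upstream to the gene end, spans 8151 bp. Of 1754 protein-coding genes with a window no longer than this, 7 (GBX2 included) had at least 6 CHD8 peaks and 13 had at least 4 TRRAP peaks, and the median was 0 for both. This comparison was chosen after the peaks were seen, and its genes were not matched to GBX2 for CpG ratio. The lncRNA gene GBX2-AS1 runs on the opposite strand and starts 1 bp from the summit of the CHD8 peak 940 bp into GBX2. The summits of 3 CHD8 and 2 TRRAP peaks were closer to that start than to the start of GBX2. Peaks carry no strand, so peaks of the 2 genes cannot be told apart.

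EN2, a homeodomain factor of the midbrain and anterior hindbrain (chromosome 7, 155458129 to 155464831, plus strand), had 1 weak peak of each protein. For CHD8 (155457340 to 155457573) the fold was 6.66 and the −log10 q 8.02, and 83.7% of CHD8 peaks had a higher fold. For TRRAP (155457276 to 155457431) the fold was 5.30 and the −log10 q 4.39, and the peak ranked 14600 of 14735 by significance. The peaks shared 92 bp, and their summits were 158 bp apart.

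Both EN2 summits lay far from the start site, 655 bp upstream for CHD8 and 813 bp upstream for TRRAP. Among all 11208 genes with a CHD8 promoter peak, the closest summit lay a median of 100.0 bp from the start site, and 5.70% had it more than 500 bp away. For the 7000 genes with TRRAP, the median was 107 bp and 7.51% were beyond 500 bp. Both EN2 summits were nearer to the start of the divergent lncRNA gene EN2-DT, at 375 bp and 217 bp. With a promoter window of 500 bp, EN2 had neither peak.

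LHX2, a LIM-homeodomain factor of the cortical primordium (chromosome 9, 124001670 to 124033301, plus strand), had 2 CHD8 peaks and no TRRAP peak. The nearer one (124011503 to 124011695) reached a fold of 8.87 and a −log10 q of 12.4, and its summit was 156 bp before the canonical start. The farther one (124011092 to 124011361) reached 7.54 and 9.04, with its summit 555 bp before that start. Both lie inside the annotated gene, which begins farther upstream than its canonical transcript. The nearest TRRAP summit was 81703 bp from the LHX2 start site.

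DLX2, a homeodomain factor of ventral forebrain progenitors (chromosome 2, 172099438 to 172102900, minus strand), had 1 CHD8 peak and no TRRAP peak. The peak spans the start site, at 172102582 to 172102987, with a fold of 7.98, a −log10 q of 10.1 and its summit 79 bp downstream in the untranslated part of exon 1. The nearest TRRAP peak was at 172095350 to 172095482, with a fold of 6.26 and its summit 7451 bp downstream of the start site, beyond the end of the gene. The neighbouring gene DLX1 showed the same pattern, with a CHD8 promoter fold of 8.43 and no TRRAP peak.

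Among all genes with a CHD8 promoter peak, the highest promoter fold had a median of 12.0. GBX2 lay at this median, with 49.4% of those genes higher. LHX2 had 77.1% of them above it, DLX2 had 84.5% and EN2 had 94.8%. Among genes with a TRRAP promoter peak, 79.5% had a higher fold than GBX2 and 98.6% a higher fold than EN2. Apart from the promoter peak of GBX2 for CHD8 and its distal peak for both proteins, the peaks at the 9 genes were thus in the weaker part of their lists. With peaks above the median rank of their list, 1 gene kept a CHD8 promoter peak (GBX2), against 42.5% of all genes, and none kept a TRRAP promoter peak, against 19.5%.

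**Figure D2:**
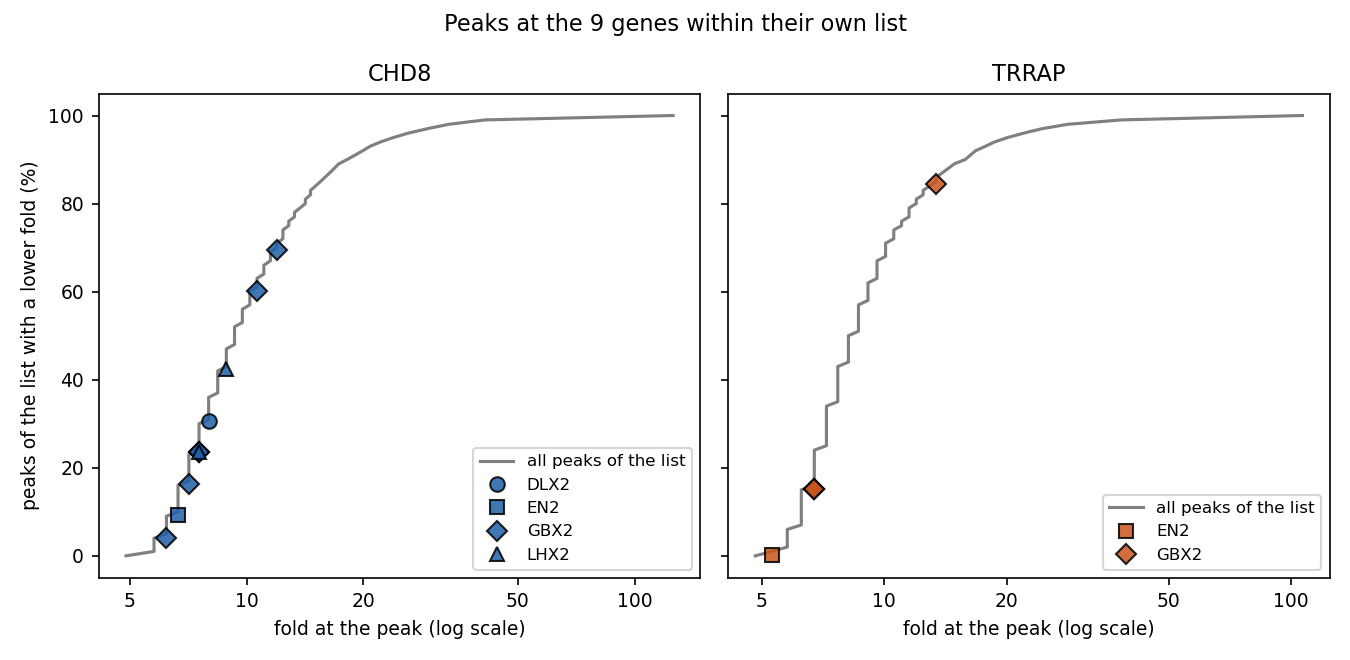
Fold of each peak at the 9 genes (symbols, by gene) on a log horizontal axis against the percentage of peaks of the same list with a lower fold (vertical axis), with the whole list as a grey curve. CHD8 is on the left and TRRAP on the right. Apart from 2 GBX2 peaks for CHD8 and 1 for TRRAP, the symbols lie below the middle of the curve.

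Of the 10 CHD8 peaks, 5 overlapped a TRRAP peak by at least 1 bp (50.0%, Wilson 95% interval 23.7 to 76.3), beside 48.6% of all CHD8 peaks. Of the 5 TRRAP peaks, 5 overlapped CHD8 (100%, 56.6 to 100), beside 86.8% of all TRRAP peaks. The intervals cover counting error only, and 8 of the 10 overlapping peaks lie at GBX2. Widths of the CHD8 peaks ran from 155 to 510 bp with a median of 264.5 bp, below that of the list. Those of the TRRAP peaks ran from 125 to 204 bp, also below the list's median.

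The 5 genes without a peak differed in how far the nearest one lay. At SIX3, an anterior forebrain factor (chromosome 2, 44941702 to 44946071, plus strand), CHD8 peaks followed the gene, at 44949905 to 44950105 (fold 7.10, summit 8300 bp downstream of the start site) and 44952166 to 44952493 (fold 8.87, 10645 bp downstream). The start of an lncRNA gene was nearer to both summits, at 4662 bp and 2317 bp. The nearest TRRAP summit was 580111 bp from the SIX3 start site. At EMX2, a dorsal forebrain factor (chromosome 10, 117542445 to 117549546, plus strand), the nearest summits lay 166885 bp (CHD8) and 166695 bp (TRRAP) upstream. At NKX2-1, a determinant of the medial ganglionic eminence (chromosome 14, 36516392 to 36521149, minus strand), the distances were 199832 bp and 127757 bp.

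OTX2, which marks forebrain and midbrain (chromosome 14, 56799905 to 56816693, minus strand), had its nearest CHD8 summit 458464 bp and its nearest TRRAP summit 161853 bp away. EN1 (chromosome 2, 118842171 to 118847648, minus strand) had them 519047 bp and 622462 bp away. Start sites of all annotated transcripts gave the same 4 genes with CHD8 and the same 2 with TRRAP, so the alternative starts of OTX2 and the other genes carried no peak either. Of the paralogs, EN2 thus had a peak of each protein and EN1 had neither. The EN2 peaks were weak, with 83.7% of CHD8 and 98.3% of TRRAP peaks higher in fold. Their summits were nearer to the start of EN2-DT, and neither peak was within 500 bp of the EN2 start site.

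The genes with and without a peak also differed in base composition. The 4 genes with a peak had CpG ratios of 0.753 (DLX2), 0.837 (LHX2), 0.905 (GBX2) and 1.05 (EN2). The 5 genes without one had ratios of 0.556 (SIX3), 0.559 (NKX2-1), 0.586 (OTX2), 0.714 (EMX2) and 0.920 (EN1). The groups overlapped through EN1, which lies in the highest decile, where 86.1% of protein-coding genes had a CHD8 peak. SIX3, NKX2-1 and OTX2 lie in the fourth decile, where 57.0% did. GC content was 63.5% to 77.1% in the genes with a peak and 43.1% to 66.0% in those without. Whether composition bears on the presence of a peak at these genes was not tested.

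**Figure D3:**
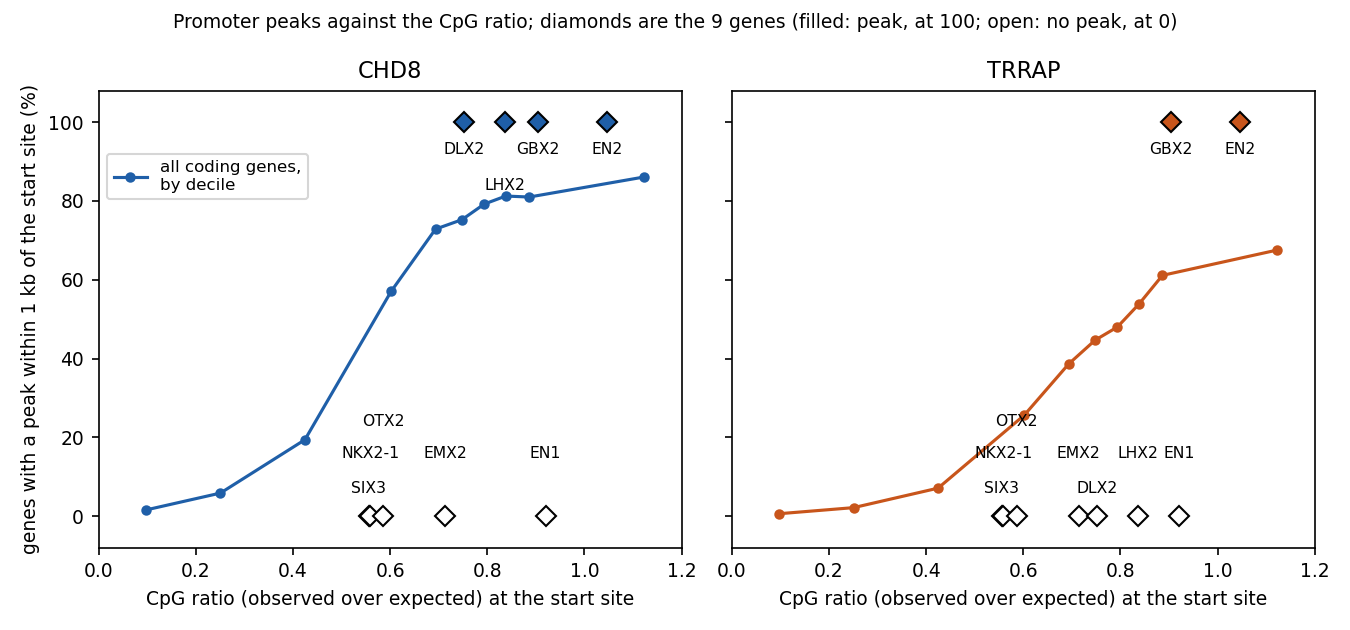
CpG ratio within 500 bp of the start site against the percentage of protein-coding genes with a promoter peak, by decile of CpG ratio (lines, drawn at the middle of each decile's range), for CHD8 and TRRAP. Diamonds place the 9 genes at their CpG ratio, filled at 100 with a promoter peak and open at 0 without; EN1 is the gene without a peak at a CpG ratio above 0.9.

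Consensus words were searched in the 201 bp centred on each summit, and the shares of the lists are over peaks on the main chromosomes (23052 for CHD8 and 14309 for TRRAP). The E-box word was found at 2 of the 10 CHD8 peaks (the EN2 peak and the GBX2 promoter peak), beside 5.37% of all CHD8 peaks, and at 0 of the 5 TRRAP peaks, beside 7.03%. With 250 bp on each side of the summit, it was at 3 of the 10 CHD8 peaks, beside 10.6%, and 2 of the 5 TRRAP peaks, beside 12.6%. The counts that follow are for the 201 bp. The E2F words (TTTCGCGC, TTTGGCGC and TTTCCCGC) were found at 0 of the 15 peaks, beside 2.06% of CHD8 and 2.56% of TRRAP peaks. The SP word was found at 1 CHD8 peak and 2 TRRAP peaks, all at GBX2, beside 12.0% and 14.9%. At the TRRAP peak with its summit 1770 bp downstream, the SP word lay outside the called 125 bp. The homeodomain word TAATTA was found at 1 CHD8 peak, 933 bp upstream of GBX2, beside 1.12%, and at 0 of the 5 TRRAP peaks, beside 0.748%. It too lay outside the called peak, which was 155 bp wide. The OTX word TAATCC and the ETS word CCGGAAGT were found at none, beside 3.32% and 3.63% of CHD8 peaks and 2.82% and 2.46% of TRRAP peaks. None of these counts was tested, and 10 of the 15 peaks lie at GBX2.

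In the 250 bp upstream of the start site, the E-box word was present at 3 of the 9 genes (DLX2, EN1 and GBX2), beside 7.87% of all protein-coding genes. Of these 3, DLX2 and GBX2 had a CHD8 promoter peak and GBX2 a TRRAP promoter peak. The 201 bp around the summits held a median of 21.5 CpG dinucleotides for CHD8 (9 to 29) and 23 for TRRAP (9 to 27). The medians in the lists were 15 and 17, over peaks at all positions. Of the peaks at the 9 genes, 6 of the 10 for CHD8 and 4 of the 5 for TRRAP lie at GBX2. A promoter was touched by 8 of the 10 and 3 of the 5, so the medians are not of like positions.

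The wider set of regional factors comprised 5 lists of 12 genes each, which include the 9 genes. Of these 60 genes, 15 had a CHD8 promoter peak (25.0%, 15.8 to 37.2), 10 a TRRAP promoter peak (16.7%, 9.31 to 28.0) and 9 both. Weighted in the same way by CpG decile, the background was 68.8% for CHD8 and 42.8% for TRRAP. From 5 kb upstream to the gene end, 21 of the 60 had a CHD8 peak and 13 a TRRAP peak, beside 64.1% and 43.3% of all genes, and 38 had neither.

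Among hindbrain factors, CHD8 lay at the promoter of 5 of 12 (41.7%) and TRRAP of 4 of 12 (33.3%). These were the highest of the 5 counts for each protein with a 1 kb promoter. The share of all genes was 55.9% for CHD8 and, close to the hindbrain value, 34.9% for TRRAP. At like CpG ratio the shares were 67.9% and 44.2%. The Wilson intervals of the hindbrain list, 19.3 to 68.0 for CHD8 and 13.8 to 60.9 for TRRAP, covered these shares. With start sites of all transcripts TRRAP lay at 4 hindbrain and 4 anterior forebrain genes, beside 38.3% of all genes. In the wider window it lay at 4 and 6, beside 43.3%. Beside GBX2, the hindbrain genes with a promoter peak were MEIS2 (CHD8 fold 14.2, TRRAP fold 11.5), IRX3 (12.0 and 9.60), IRX2 (8.87 and 17.7) and MEIS1 (9.75, CHD8 alone). These are homeodomain genes that are also expressed outside the hindbrain. Among midbrain factors, CHD8 lay at 3 of 12 and TRRAP at 2, against 67.7% and 44.7% at like CpG ratio. Apart from EN2, the genes were PAX5, a paired-box factor of the isthmus (10.2 and 9.12, with 6 CHD8 peaks in its window), and LMX1B (8.87, CHD8 alone).

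In the forebrain, the dorsal list had CHD8 at 3 of 12 and TRRAP at 1, against 68.0% and 42.5% at like CpG ratio. Beside LHX2, PAX6, a paired-box factor of cortical progenitors, had folds of 12.8 and 9.60. The anterior list had CHD8 at 2 of 12 (4 with start sites of all transcripts) and TRRAP at 3, against 67.8% and 40.8%. Its genes with a peak within 1 kb were ZIC2 (12.0 and 11.5), VAX2 (10.6 and 11.0) and SP8 (TRRAP fold 6.73). Ventral forebrain factors had CHD8 at 2 of 12 (DLX1 and DLX2) and TRRAP at 0 of 12 (upper Wilson limit 24.2%), against 72.5% and 41.8%. The Wilson intervals of the 5 lists overlapped for each protein, and differences between regions were not tested.

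Among 12 genes for secreted signals of patterning centres, CHD8 lay at the promoter of 4, which were CHRD (fold 9.31), BMP7 (7.54), DKK1 (6.66) and FGF18 (6.22), beside 55.9% of all genes and 65.6% at like CpG ratio. In the wider window, 7 of the 12 had a CHD8 peak, beside 64.1% of all genes. The 5 transcription factor lists had 2 to 6. TRRAP lay at the promoter of BMP7 alone (6.73), beside 34.9% and 41.2%. WNT1 and NOG had no peak of either protein in their windows, and FGF8, the isthmic organizer signal, had no promoter peak but 1 CHD8 peak in its window (these 3 were named after their values were seen).

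**Figure D4:**
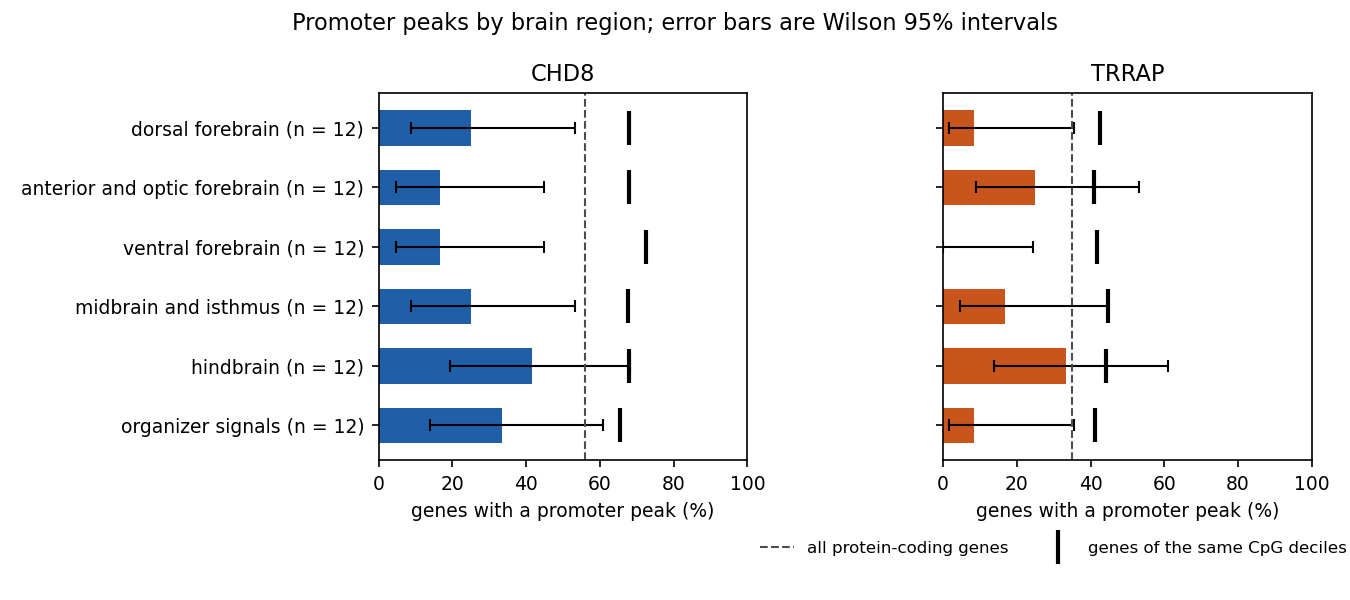
Percentage of genes with a promoter peak in each list of 12 genes, for CHD8 and TRRAP, with Wilson 95% intervals as error bars. Dashed lines mark all protein-coding genes (55.9% and 34.9%), and short black lines mark genes of the same CpG deciles, weighted by the list's genes in each; every CHD8 bar is below the dashed line.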

How the data were processed

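Peaks of 1 CHD8 and 1 TRRAP library were read from the deposited lists. The submitters' processing notes name HISAT2, MACS2 2.1.1.20160309 and GRCh38; settings and control are not given in the sources used here. The fold (a ratio), the −log10 p and −log10 q and the score are values deposited by the authors, the score being 10-fold the −log10 q cut to a whole number. File names give false discovery rates, 0.0001 for CHD8 and 0.001 for TRRAP.

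Start sites came from canonical transcripts of GENCODE 44, and a promoter was 1 kb on each side. Each protein had 1 library, so nothing was tested; counts stand beside those of all protein-coding genes, and other windows, start sites, ranks and overlap rules were tried. Read depth is unknown. Peaks counted if they shared at least 1 bp with a window. Ranks used −log10 q, then fold, width and position. Named genes were the 9 genes and, per regional list, the 3 other genes with the highest CHD8 and TRRAP promoter fold; genes without peaks could be named, and 1 gene the rule names is not reported here. The genes, regional lists and markers were chosen with earlier results of these data known, and support nothing by themselves. Overlap counting was tested on simulated data. The analysis used Python 3.11.15, pandas 2.3.3, numpy 2.4.6, scipy 1.17.1, pysam 0.24.0, samtools 1.23.1 and matplotlib 3.10.9.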

Additional observations from a re-analysis of the deposited data

How the results depend on the processing

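With a promoter window of 500 bp, 1 of the 9 genes (GBX2) had a TRRAP promoter peak and 1 had both, having lost EN2. A wider window, summits inside the window and start sites of all transcripts each gave the same genes as 1 kb. The wider window took in the distal GBX2 peak, which raised its TRRAP promoter fold from 6.73 to 13.4, and start sites of all transcripts raised the anterior forebrain CHD8 count from 2 to 4. Restriction to peaks above the median rank of their list moved most counts. It left 1 gene with a CHD8 promoter peak, 0 with a TRRAP promoter peak and 0 with both. It left 1 gene with a CHD8 peak and 1 with a TRRAP peak in the wider window, holding 2 CHD8 peaks (1 of which overlapped TRRAP) and 1 TRRAP peak (1 of 1 overlapping CHD8). Of the 60 regional genes, 8 then had a CHD8 promoter peak. Of all protein-coding genes, 42.5% then had a CHD8 promoter peak, 19.5% a TRRAP promoter peak and 16.7% both. The reason for the losses was not tested. Peaks with any of the consensus words numbered 5 of 15 within 100 bp of the summit and 10 of 15 within 250 bp, which searches more sequence. The other overlap rules, a shorter and a longer upstream distance and a TRRAP q-value of at most 0.0001 left the counts at the 9 genes within 1.5 times. Over all genes pooled from the CpG deciles that hold the 9 genes, without weighting, an alternative added after the data were seen, the backgrounds were 75.6% for CHD8 and 48.6% for TRRAP. No library could be left out, because each protein had 1, and the depth behind the lists is unknown.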

Other observations

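Downstream of EN2, outside its window, lay stronger peaks than at its promoter. They were chosen for mention after their values were seen. On chromosome 7, CHD8 peaks were at 155466451 to 155467082 (fold 10.6) and 155467711 to 155468741 (fold 15.5), and the second began 2880 bp past the gene end. A TRRAP peak at 155467913 to 155468492 (fold 9.60) lay inside the latter. No annotated gene covered these summits, and EN2 had the closest start site, 8762 to 9963 bp away. Farther on, inside CNPY1, CHD8 reached a fold of 14.6 (155490383 to 155491670) and overlapped 2 TRRAP peaks with folds of 5.78 and 6.73. Within 50 kb of their start sites, EN2 had 7 CHD8 and 6 TRRAP peaks, GBX2 had 7 and 4, DLX2 had 3 and 1, and LHX2 and SIX3 had 2 CHD8 peaks and no TRRAP peak each. EMX2, OTX2, EN1 and NKX2-1 had none of either within that distance.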
